A study of Caenorhabditis elegans with 165 samples.

Results

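RNA from whole Caenorhabditis elegans larvae labelled replicate 4 was compared with RNA from larvae labelled replicates 2 and 3, in 3 strains. N2 is the wild-type laboratory strain, 15eh1 carries a fusion of its X chromosome with chromosome V, and YPT41 one with chromosome II. The comparison holds 9 of the 12 RNA-seq libraries of a series of 165 samples: 3 libraries of replicate 4, one per strain, against 6 of replicates 2 and 3. Libraries of replicate 1 were left out, and 153 ChIP-seq and input samples were not analysed here. All libraries carry the same stage label, spanning L1 to L3. The series' own summary of its design gives L3 for the RNA-seq, and the growth protocols describe embryos. Neither sex nor food is stated, and nothing says that libraries sharing a number were collected together or came from separate cultures. P-values therefore measure the spread between these libraries, which may be technical.

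A C. elegans larva builds a new cuticle and sheds the old one at the end of every larval stage. Many cuticle collagens, pharyngeal cuticle proteins and Hedgehog-related proteins are transcribed in pulses, once per stage and each at its own phase. Heterochronic genes set which stage a larva passes through. Yolk proteins are made in the intestine of adult hermaphrodites and taken up by oocytes. Genes of fatty acid breakdown, of the glyoxylate cycle and of vitamin B12-dependent metabolism follow food and diet.

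Libraries of replicate 4 were the deepest of their strain, with 31234047 gene counts in N2, 27079687 in 15eh1 and 20573267 in YPT41, against 8237095 to 21910442 in replicates 2 and 3. Reads outside annotated features made up 3.69% to 4.25% in replicate 4 and 2.56% to 3.37% in replicates 2 and 3, and reads without a unique position made up 20.3% to 22.7% in replicate 4 and 13.2% to 19.4% in replicates 2 and 3. The part of these differences in what follows was not tested. YPT41 replicate 4 stood apart: it lay at 102.005 on the first principal component (41.3% of the variance), YPT41 replicate 3 at 46.1, and the other 7 libraries between −31.5 and −6.68. In YPT41, 23.3% of the tested genes differed by more than 1 on the log2 scale between replicate 4 and the mean of replicates 2 and 3, compared with 8.29% in N2 and 4.78% in 15eh1. The same share between replicates 3 and 2 of one strain was 13.9% in YPT41, 6.97% in N2 and 4.85% in 15eh1. Body wall muscle, intestine and synaptic genes were detected, with 14 of 15, 9 of 9 and 18 of 18 members passing the filter on low counts, and sperm genes were mostly absent, with 2 of 39.

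No gene reached an adjusted p below 0.05 in edgeR's quasi-likelihood test with the strain as a block, among 13299 genes tested (0% called). The lowest adjusted p was 0.0879, shared by 182 genes. At an unadjusted p below 0.05 there were 2454 genes, of which 1368 (10.3% of those tested) were higher and 1086 (8.17%) lower in replicate 4. DESeq2 called 711 genes, 434 higher (3.26%) and 277 lower (2.08%), and limma voom called 0. The share of a list that DESeq2 called each way, given below, stands against these 3.26% and 2.08%. Below, "higher" and "lower" describe edgeR's log2 differences, replicate 4 minus replicates 2 and 3, given with an approximate standard error (SE). This SE is the absolute difference divided by the square root of the test's F statistic, and was not given by the fit itself. None of these differences passed edgeR's threshold, and DESeq2's calls are named as such. Levels are in CPM, counts scaled by library size with TMM factors. The factor was 0.80 for YPT41 replicate 4 and 0.98 to 1.08 for the other libraries, so levels in YPT41 replicate 4 carry the largest correction. In 540 genes (4.06%) the 3 libraries of replicate 4 lay above all other 6, and in 521 (3.92%) below them. Some genes named below were picked for this lack of overlap and are listed with the processing. In 1489 genes (11.2%) replicate 4 exceeded both other replicates in each strain, and in 1332 (10.0%) it was below both in each strain. The median difference of all tested genes was −0.02.

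**Figure D1:**
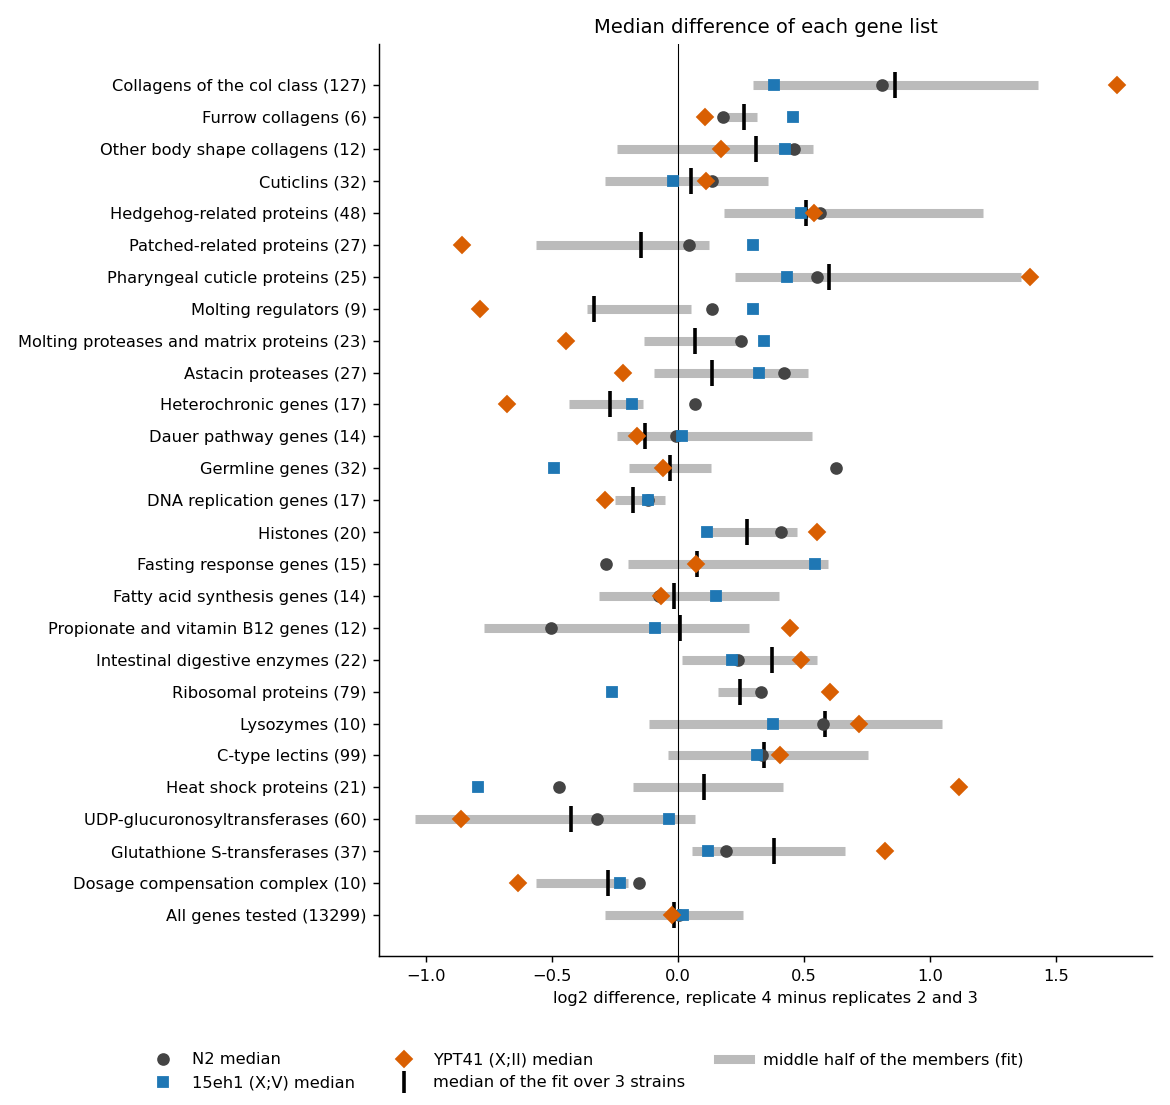
Median log2 difference, replicate 4 minus replicates 2 and 3, for 26 gene lists and for all tested genes (number of tested members in brackets). Coloured symbols are medians within N2, 15eh1 and YPT41, black bars are medians of the fit over 3 strains, and grey bars run from the lower to the upper quartile of the members. The col class collagens sit at 0.86 overall with every strain above 0, while molting regulators and Patched-related proteins lie below 0 in YPT41 alone, and heat shock proteins above 0 in YPT41 alone.

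Most cuticle collagens had differences above 0. Of 127 tested members of the col class, out of 158, 109 had a difference above 0, with a median of 0.86. In 55 of them (43.3%, against 11.2% of all genes) replicate 4 exceeded both other replicates in each strain, and in 1 it was below both. DESeq2 called 32 higher (25.2%) and 2 lower. The class took 2.47% of the counts of N2 replicate 4, 2.42% in 15eh1 and 3.22% in YPT41, against 1.29% to 2.102% in replicates 2 and 3. The size differed by strain, with a median of 0.81 in N2, 0.38 in 15eh1 and 1.74 in YPT41. In 15eh1 the mean log2 CPM over members was 3.76 in replicate 4, which lay between 4.08 in replicate 2 and 3.41 in replicate 3.

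Among the col genes with the lowest p, col-117 stood at 49.5 (N2), 41.8 (15eh1) and 59.4 CPM (YPT41) in replicate 4, against 30.9 and 25.3 (N2), 23.8 and 25.1 (15eh1) and 22.9 and 26.8 CPM (YPT41) in replicates 2 and 3. Every library of replicate 4 lay above the other 6, and the difference was 0.95 ± 0.15 (SE) with an adjusted p of 0.0879 (DESeq2 5.92e-05). The more abundant col-73 had 835 (N2), 513 (15eh1) and 724 CPM (YPT41) in replicate 4, against 366 and 430.4 (N2), 385 and 342 (15eh1) and 285 and 307 CPM (YPT41) in replicates 2 and 3, again with no overlap between the groups, and a difference of 0.97 ± 0.17. For col-115 the level was 17.3 to 52.4 CPM in replicate 4 and 7.17 to 19.7 CPM in replicates 2 and 3, and the groups met because 15eh1 replicate 4 was below N2 replicate 3. The gap was widest in YPT41 for col-12, at 91.8 (N2), 75.8 (15eh1) and 322 CPM (YPT41) in replicate 4, against 28.2 and 40.7 (N2), 58.6 and 40.99 (15eh1) and 25.6 and 47.9 CPM (YPT41) in replicates 2 and 3, and its difference was 1.83 ± 0.41. The 2 most abundant col genes differed from each other: col-42 (0.88 ± 0.21) was higher in replicate 4 of every strain, whereas col-160 (0.68 ± 0.35) lay inside the range of replicates 2 and 3 in N2 and 15eh1 and above it in YPT41, by 0.16 in N2, −0.07 in 15eh1 and 1.82 in YPT41.

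Furrow collagens, which form the circumferential annuli of the cuticle and are made early in each stage, had smaller differences. All 6 had a difference above 0, with a median of 0.26, and DESeq2 called dpy-3 (16.7% of the list). Its level was 219.7 (N2), 223 (15eh1) and 168 CPM (YPT41) in replicate 4, against 164 and 134 (N2), 148 and 132 (15eh1) and 139 and 118 CPM (YPT41) in replicates 2 and 3, so the groups did not overlap, and the difference was 0.54 ± 0.14 (adjusted p = 0.121; DESeq2 0.0141). The other 5 were smaller, at 0.32 ± 0.18 for dpy-8, 0.28 ± 0.13 for dpy-7, 0.24 ± 0.13 for dpy-9, 0.14 ± 0.16 for dpy-10 and 0.05 ± 0.15 for dpy-2. Replicate 4 exceeded both other replicates in each strain for dpy-3, dpy-7 and dpy-9.

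Other collagens that set body shape went both ways. Of 12 tested, 9 had a difference above 0 and the median was 0.31. DESeq2 called 3 higher (25%, against 3.26% of all genes) and 2 lower (16.7%, against 2.08%). The most abundant, sqt-3, had 1744 ± 445 CPM in replicate 4 and 1332 ± 240.4 CPM in replicates 2 and 3 (SD, n = 3 and 6), a difference of 0.37 ± 0.16 that DESeq2 did not call (adjusted p = 0.184). For dpy-4 the level was 2052 (N2), 1452 (15eh1) and 1778 CPM (YPT41) in replicate 4, against 920.2 and 1358 (N2), 1074 and 909.5 (15eh1) and 959.6 and 734 CPM (YPT41) in replicates 2 and 3, with no overlap and a difference of 0.83 ± 0.18 (DESeq2 adjusted p = 0.00249). The difference of dpy-13, called as well, was 0.70 ± 0.15. In the other direction, dpy-14 was at 0.879 (N2), 0.245 (15eh1) and 2.25 CPM (YPT41) in replicate 4, against 2.72 and 4.87 (N2), 7.16 and 7.63 (15eh1) and 5.75 and 3.16 CPM (YPT41) in replicates 2 and 3. Here replicate 4 was below the other 6 libraries (−2.31 ± 0.62, DESeq2 adjusted p = 0.00202), with the widest gap in 15eh1. For dpy-17 (−1.198 ± 0.40) YPT41 replicate 4 lay between the other replicates of its strain.

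Pharyngeal cuticle proteins, which line the feeding organ and are replaced with the body cuticle, held some of the largest differences. Of 25 tested members, out of 45, 20 had a difference above 0, and the median was 0.60. DESeq2 called 8 higher (32%, against 3.26% of all genes) and 0 lower. For abu-1 the level was 12.56 (N2), 7.49 (15eh1) and 29.5 CPM (YPT41) in replicate 4, against 1.59 and 4.53 (N2), 3.58 and 1.42 (15eh1) and 1.06 and 1.47 CPM (YPT41) in replicates 2 and 3. The 3 libraries of replicate 4 lay above the other 6, by 2.18 in N2, 1.68 in 15eh1 and 4.45 in YPT41 on the log2 scale, and the overall difference was 2.79 ± 0.55 (adjusted p = 0.0879; DESeq2 4.59e-05). Its relative abu-10 had 75.1 (N2), 31.6 (15eh1) and 142 CPM (YPT41) in replicate 4, against 7.40 and 31.6 (N2), 21.02 and 14.7 (15eh1) and 14.9 and 10.1 CPM (YPT41) in replicates 2 and 3. N2 replicate 3 and 15eh1 replicate 4 had the same value to 3 digits, and the difference was 2.20 ± 0.51. The most abundant member, abu-14, was at 349 to 680.0 CPM in replicate 4 and 205 to 384 CPM in replicates 2 and 3, a difference of 0.95 ± 0.21.

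The genes idpc-3, idpc-4 and idpc-6, for which no role is given here, and pqn-63 were picked with no overlap between the groups as a condition. For idpc-4 the values were 123 (N2), 69.8 (15eh1) and 299 CPM (YPT41) in replicate 4, against 13.4 and 46.2 (N2), 34.7 and 14.1 (15eh1) and 21.9 and 21.1 CPM (YPT41) in replicates 2 and 3, a difference of 2.54 ± 0.49 with no overlap. Those of idpc-3 and idpc-6 were 2.09 ± 0.41 and 2.05 ± 0.42, and that of pqn-63, a protein rich in glutamine and asparagine, was 1.68 ± 0.36. In N2 replicate 3 each of these 4 genes stood above N2 replicate 2 and below N2 replicate 4. The abu, pqn and col genes belong to families with similar sequences. Reads without a unique position were tallied apart from the genes and left out, and the part of this in these levels was not tested.

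Hedgehog-related proteins, secreted proteins of the worm epidermis that take part in cuticle formation, were also higher as a group. Of 48 tested members, out of 58, 40 had a difference above 0, and the median was 0.51, close to that within each strain (0.56 in N2, 0.49 in 15eh1 and 0.54 in YPT41). DESeq2 called 10 higher (20.8%) and 0 lower. The level of grd-6 was 125 (N2), 54.7 (15eh1) and 174 CPM (YPT41) in replicate 4, against 17.4 and 52.6 (N2), 30.9 and 23.3 (15eh1) and 24.2 and 28.1 CPM (YPT41) in replicates 2 and 3, with the groups apart and a difference of 1.91 ± 0.36 (DESeq2 adjusted p = 5.92e-05). For grl-16, the most abundant member, it was 771 (N2), 523 (15eh1) and 639 CPM (YPT41) in replicate 4, against 283 and 477 (N2), 377 and 252 (15eh1) and 263 and 277 CPM (YPT41) in replicates 2 and 3. The groups did not overlap there either (1.004 ± 0.20). The difference of grl-17 was 3.23 ± 0.68, from 1.78 to 28.1 CPM in replicate 4 and 0.0587 to 4.87 CPM in replicates 2 and 3, and it was widest in N2 at 28.1 CPM in replicate 4.

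Patched-related proteins, membrane proteins related to the Hedgehog receptor that are needed for molting, had a median below 0. Their median was −0.14 over 27 genes, with 0.04 in N2, 0.30 in 15eh1 and −0.86 in YPT41. DESeq2 called 0 higher and 5 lower (18.5%). One was ptc-1, which had 225 (N2), 234 (15eh1) and 174 CPM (YPT41) in replicate 4, against 295 and 309 (N2), 295 and 326 (15eh1) and 351 and 332 CPM (YPT41) in replicates 2 and 3. All 3 libraries of replicate 4 were below the other 6 (−0.59 ± 0.16, DESeq2 adjusted p = 0.00768). The difference of ptc-3 was −0.09 ± 0.18.

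**Figure D2:**
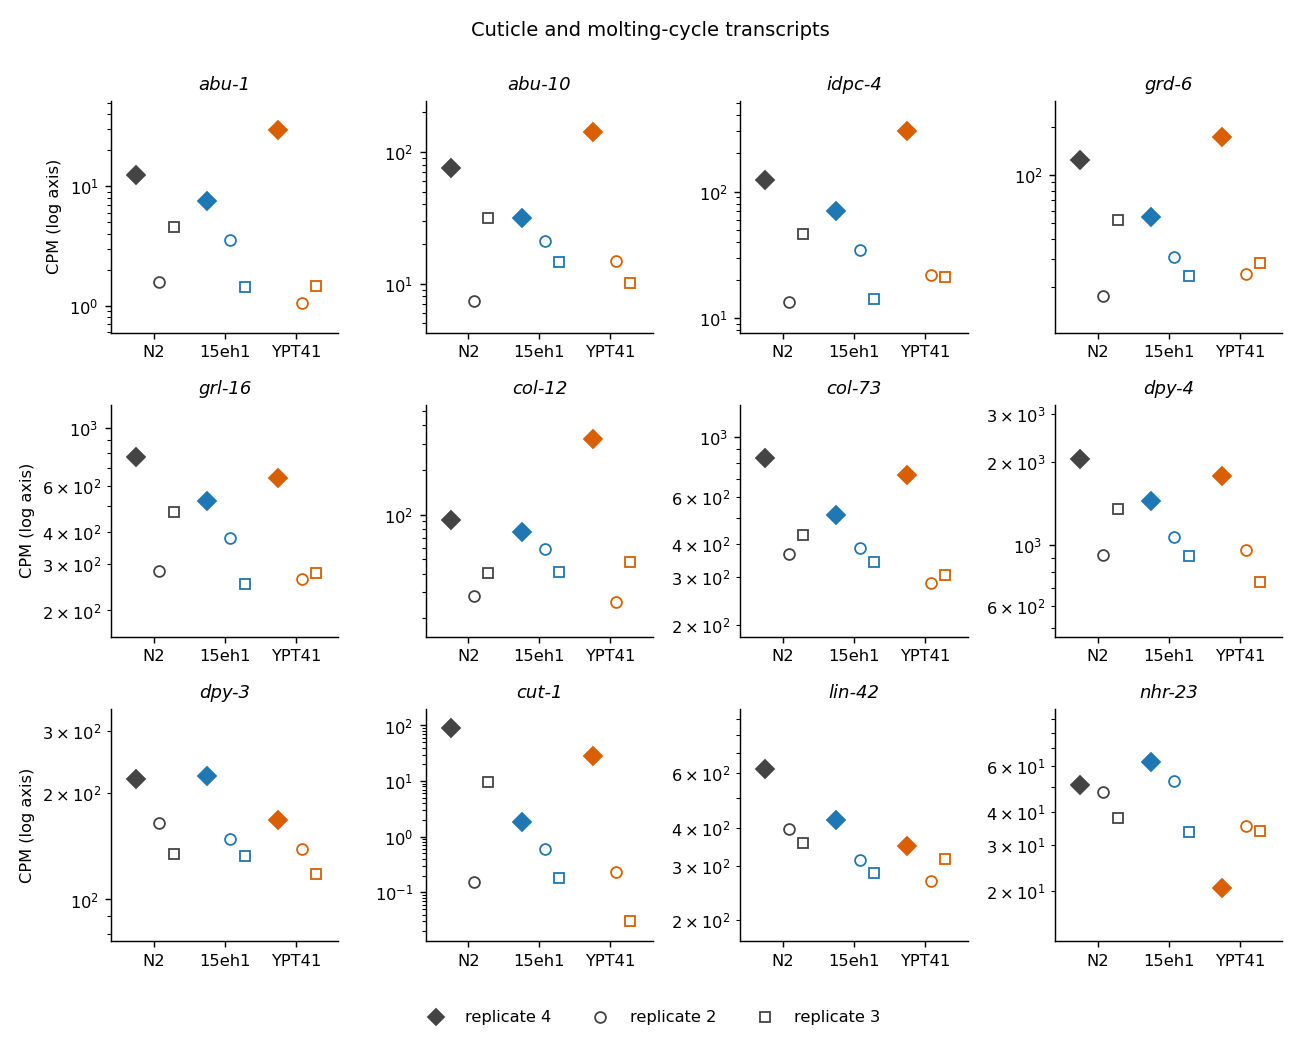
CPM per library on log axes for 12 transcripts of the cuticle and the molting cycle, with replicate 4 as filled diamonds and replicates 2 and 3 as open circles and squares (the one value of 0, cut-1 in YPT41 replicate 3, is drawn at 0.03). In abu-1, idpc-4, grd-6, grl-16, col-12, col-73, dpy-4 and dpy-3 the filled symbols lie above all open ones, while nhr-23 is lowest in YPT41 replicate 4 (20.5 CPM).

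Regulators of the molting cycle did not share a direction across strains. The median over 9 genes was −0.33, with 0.14 in N2, 0.30 in 15eh1 and −0.79 in YPT41, and without YPT41 replicate 4 it was 0.26. DESeq2 called 1 (11.1%), lin-42, the worm relative of the Period clock gene. The level of lin-42 was 621 (N2), 424 (15eh1) and 348 CPM (YPT41) in replicate 4, against 395 and 357 (N2), 313 and 286 (15eh1) and 268 and 315 CPM (YPT41) in replicates 2 and 3. Within each strain replicate 4 was highest, but the groups overlapped across strains (0.50 ± 0.15; adjusted p = 0.142; DESeq2 0.0276). The nuclear receptor gene nhr-85, which pulses with the molting cycle, was at 55.7 (N2), 39.5 (15eh1) and 30.6 CPM (YPT41) in replicate 4, against 28.4 and 33.5 (N2), 29.6 and 26.9 (15eh1) and 29.1 and 29.6 CPM (YPT41) in replicates 2 and 3, highest in replicate 4 in each strain, with a difference of 0.48 ± 0.16. The nuclear receptor gene nhr-23, required for molting, had 50.9 (N2), 62.3 (15eh1) and 20.5 CPM (YPT41) in replicate 4, against 47.5 and 38.1 (N2), 52.5 and 33.7 (15eh1) and 35.4 and 33.8 CPM (YPT41) in replicates 2 and 3. It was highest in replicate 4 of N2 and of 15eh1 and lowest in that of YPT41, and the overall difference was 0.05 ± 0.24.

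YPT41 replicate 4 was the low library of its strain in 6 other regulators. Within-strain differences of blmp-1, a zinc finger gene, were 0.14 in N2, −0.01 in 15eh1 and −1.39 in YPT41. Those of bed-3 were −0.05 in N2, 0.59 in 15eh1 and −2.10 in YPT41, and those of myrf-1, a membrane-bound transcription factor needed for molting, were 0.28 in N2, 0.30 in 15eh1 and −0.76 in YPT41. The Grainyhead gene grh-1, which acts in the epidermis, had −0.17 in N2, −0.13 in 15eh1 and −0.85 in YPT41. For nhr-25 the values were −0.20 in N2, −0.33 in 15eh1 and −0.98 in YPT41, lower in each strain, and for the casein kinase gene kin-20 they were 0.07 in N2, −0.31 in 15eh1 and −0.79 in YPT41.

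Molting proteases and matrix proteins, 23 tested, had a median of 0.07, again with 0.25 in N2, 0.34 in 15eh1 and −0.44 in YPT41. DESeq2 called 1 higher (4.35%, against 3.26% of all genes) and 0 lower. The protease inhibitor gene mlt-11 had 1589 (N2), 718 (15eh1) and 412 CPM (YPT41) in replicate 4, against 1452 and 1230.4 (N2), 585 and 550.4 (15eh1) and 844 and 860.1 CPM (YPT41) in replicates 2 and 3. It was highest in replicate 4 of N2 and 15eh1 and lowest in that of YPT41, as was noah-1, an apical matrix protein gene, with 0.25 in N2, 0.16 in 15eh1 and −1.22 in YPT41. By contrast mlt-10 exceeded both other replicates in each strain, by 0.27 in N2, 0.67 in 15eh1 and 0.51 in YPT41, although DESeq2 did not call it (adjusted p = 0.282). Cuticlins (32 tested, median 0.05) and astacin proteases (27 tested, median 0.13) had 2 genes each called higher by DESeq2 (6.25% and 7.41%). The 10 collagen processing enzymes had none (median 0.14).

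Heterochronic genes differed by small amounts, and 14 of 17 had a difference below 0 (median −0.27, with 0.07 in N2, −0.18 in 15eh1 and −0.68 in YPT41). DESeq2 called 2 higher (11.8%), lin-42 and lin-29, and 1 lower (5.88%), lin-28, against 3.26% and 2.08% of all genes. The RNA-binding protein gene lin-28, an early-stage factor whose product declines as larvae age, was at 33.8 (N2), 49.6 (15eh1) and 59.0 CPM (YPT41) in replicate 4, against 54.1 and 63.7 (N2), 65.3 and 79.1 (15eh1) and 67.4 and 75.5 CPM (YPT41) in replicates 2 and 3. Replicate 4 was lowest in each strain, and YPT41 replicate 4 lay inside the range of the other 6 libraries (−0.53 ± 0.16; adjusted p = 0.142; DESeq2 0.0406). The zinc finger gene lin-29, which acts at the larval-to-adult switch, had 15.4 (N2), 10.4 (15eh1) and 10.1 CPM (YPT41) in replicate 4, against 7.40 and 7.80 (N2), 7.24 and 5.70 (15eh1) and 5.87 and 8.81 CPM (YPT41) in replicates 2 and 3. All 3 libraries of replicate 4 lay above the other 6 (0.73 ± 0.20; DESeq2 adjusted p = 0.0321).

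The early L1 factor lin-14 stood at 113.7 (N2), 95.9 (15eh1) and 75.4 CPM (YPT41) in replicate 4, against 166 and 109 (N2), 125 and 121 (15eh1) and 125 and 219 CPM (YPT41) in replicates 2 and 3. Its difference was −0.58 ± 0.25, N2 replicate 4 lay above N2 replicate 3, and DESeq2 did not call it (adjusted p = 0.158). The Hunchback-like gene hbl-1 (−0.45 ± 0.21), lin-66 (−0.40 ± 0.16) and sea-2 (−0.26 ± 0.16) also had negative differences. Those of the Argonaute gene alg-1 and of lin-41 were −0.43 ± 0.24 and −0.22 ± 0.20, and in YPT41 alone they were −1.12 and −0.85. The rest were −0.14 ± 0.16 for apl-1, −0.27 ± 0.26 for the steroid receptor gene daf-12, −0.23 ± 0.16 for din-1, −0.10 ± 0.22 for dre-1, −0.31 ± 0.19 for puf-9, −0.61 ± 0.37 for lin-46 and 0.14 ± 0.37 for mab-10. None of these was called by DESeq2.

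Other stage-linked lists had few calls. Among 14 dauer pathway genes, named for the resistant larva formed under poor conditions, the median was −0.13. DESeq2 called 2 higher (14.3%, cut-1 and cut-6) and 1 lower (7.14%, daf-5). For daf-5, a TGF-beta pathway gene, the level was 116 (N2), 125 (15eh1) and 179 CPM (YPT41) in replicate 4, against 193 and 206 (N2), 211 and 283 (15eh1) and 281 and 333 CPM (YPT41) in replicates 2 and 3, with all 3 libraries of replicate 4 below the other 6 and a difference of −0.85 ± 0.16 (adjusted p = 0.0879; DESeq2 5.92e-05). The cuticlin gene cut-1, which is made in dauer larvae, was at 88.6 (N2), 1.82 (15eh1) and 28.4 CPM (YPT41) in replicate 4, against 0.151 and 9.75 (N2), 0.609 and 0.184 (15eh1) and 0.235 and 0 CPM (YPT41) in replicates 2 and 3. In each strain replicate 4 was highest, but N2 replicate 3 was above 15eh1 replicate 4, and values near 0 make the fitted difference of 4.57 ± 0.94 depend on the low libraries. That of cut-6 was 0.93 ± 0.22, and that of daf-9, a cytochrome P450 gene of steroid hormone synthesis, was 0.79 ± 0.33 (DESeq2 adjusted p = 0.202).

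Of 32 germline genes, 16 lay above 0, with a median of −0.03 that varied by strain (0.63 in N2, −0.49 in 15eh1 and −0.06 in YPT41). DNA replication genes had −0.18 over 17 genes, and genes of the vulva and anchor cell had −0.20 over 17. DESeq2 called no member of these 3 lists or of 20 tested histone genes (median 0.27). EdgeR's unadjusted p was below 0.05 for 3 germline (9.38%), 2 replication (11.8%) and 2 vulva genes (11.8%), all lower, against 8.17% of all genes. It was below 0.05 for 2 histone genes (10%), both higher, against 10.3%. Fewer cells of a type and less RNA per cell cannot be told apart in whole animals.

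Yolk protein transcripts gave the largest differences by size. All 6 vitellogenin genes were lower in replicate 4, with a median of −5.78, and DESeq2 called all 6 (100% of the list, against 2.08% of all genes). Except vit-1, they were below 1 CPM in replicate 4 of N2 and 15eh1 and above that level in replicates 2 and 3 of both. In YPT41, replicates 4 and 2 were both low and replicate 3 was highest in all 6 genes. For vit-3, vit-4 and vit-5, YPT41 replicates 4 and 2 hold at most 4 counts each, too few to order them. For vit-5 the level was 0 (N2), 0.105 (15eh1) and 0.122 CPM (YPT41) in replicate 4, against 36.5 and 51.02 (N2), 79.8 and 69.8 (15eh1) and 0.0587 and 43.4 CPM (YPT41) in replicates 2 and 3. These rest on 0 (N2), 3 (15eh1) and 2 (YPT41) counts in replicate 4, against 483 and 890, 1048 and 1519, and 1 and 384 counts in replicates 2 and 3 of N2, 15eh1 and YPT41. Before TMM scaling, 3 counts are worth 0.0960 to 0.146 CPM in the libraries of replicate 4. No library of replicate 4 held more than 3 counts of vit-5.

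For vit-6 the values were 0.488 (N2), 0.909 (15eh1) and 3.77 CPM (YPT41) in replicate 4, against 72.0 and 136 (N2), 178 and 172 (15eh1) and 0.646 and 98.8 CPM (YPT41) in replicates 2 and 3. N2 and 15eh1 replicate 4 were below 1 CPM, and YPT41 replicate 4 was above YPT41 replicate 2. The same held for vit-2, at 0.423 (N2), 0.420 (15eh1) and 5.77 CPM (YPT41) in replicate 4, against 62.2 and 106 (N2), 142 and 182 (15eh1) and 0.235 and 85.5 CPM (YPT41) in replicates 2 and 3. The differences were −5.97 ± 1.48 for vit-6 (adjusted p = 0.105) and −5.59 ± 1.68 for vit-2 (adjusted p = 0.147), and with so few counts in replicate 4 the fitted size depends on the low libraries. The other members were less abundant, with 0.243 to 0.293 CPM in replicate 4 and 0.235 to 10.7 CPM in replicates 2 and 3 for vit-4, 0 to 0.122 CPM in replicate 4 and 0.0587 to 7.68 CPM in replicates 2 and 3 for vit-3 and 2.55 to 3.97 CPM in replicate 4 and 1.64 to 17.7 CPM in replicates 2 and 3 for vit-1. Only vit-1 kept a level above 2 CPM in all 3 libraries of replicate 4 (−1.28 ± 0.44).

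The 6 genes together took 0.000512% of the counts of N2 replicate 4 (160 counts; exact 95% interval 0.000436% to 0.000598%), 0.000565% in 15eh1 and 0.00101% in YPT41. In replicates 2 and 3 they took 0.0200% and 0.0335% in N2, 0.0429% and 0.0449% in 15eh1, and 0.000294% and 0.0263% in YPT41. Intervals and floors cover counting error only. Without YPT41 replicate 2, edgeR called 5 genes, all lower: vit-3, vit-4, vit-5, vit-6 and M163.1. Without the strain YPT41 it called 11 genes, among them vit-2 to vit-6 and perm-4. The vit-3, vit-4 and vit-5 sequences are alike. Reads without a unique position were tallied apart from the genes, so counts of these genes may miss some of their reads.

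Other transcripts of adult hermaphrodites had smaller differences, some of them with the same libraries low. All 11 oocyte and eggshell genes had a difference below 0 (median −0.66), with −0.41 in N2, −1.05 in 15eh1 and 0.01 in YPT41. DESeq2 called none, while 2 (18.2%, against 8.17% of all genes) had an unadjusted p below 0.05 in edgeR. For perm-4, an eggshell protein gene, which was not among those 2, the level was 0.0325 (N2), 0.210 (15eh1) and 1.76 CPM (YPT41) in replicate 4, against 2.79 and 4.53 (N2), 5.41 and 13.1 (15eh1) and 0.117 and 2.37 CPM (YPT41) in replicates 2 and 3. Here too N2 and 15eh1 replicate 4 were the low ones together with YPT41 replicate 2, and the same 3 libraries were lowest for perm-2 (−3.22 ± 1.199). The 2 most abundant of the list, cbd-1 and cpg-1, an eggshell chitin-binding protein gene and an eggshell proteoglycan gene, had −0.76 ± 0.32 and −0.25 ± 0.40. The list took 0.00273% to 0.00345% of the counts in replicate 4 and 0.00272% to 0.00917% in replicates 2 and 3. The adult collagen gene col-19 was at 0.195 (N2), 0.140 (15eh1) and 3.77 CPM (YPT41) in replicate 4, against 1.13 and 4.07 (N2), 2.13 and 7.72 (15eh1) and 0 and 1.24 CPM (YPT41) in replicates 2 and 3. It was lowest in replicate 4 of N2 and 15eh1 and highest in that of YPT41. The number of adults in any collection is not given in the labels, and its part in the yolk values was not tested.

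**Figure D3:**
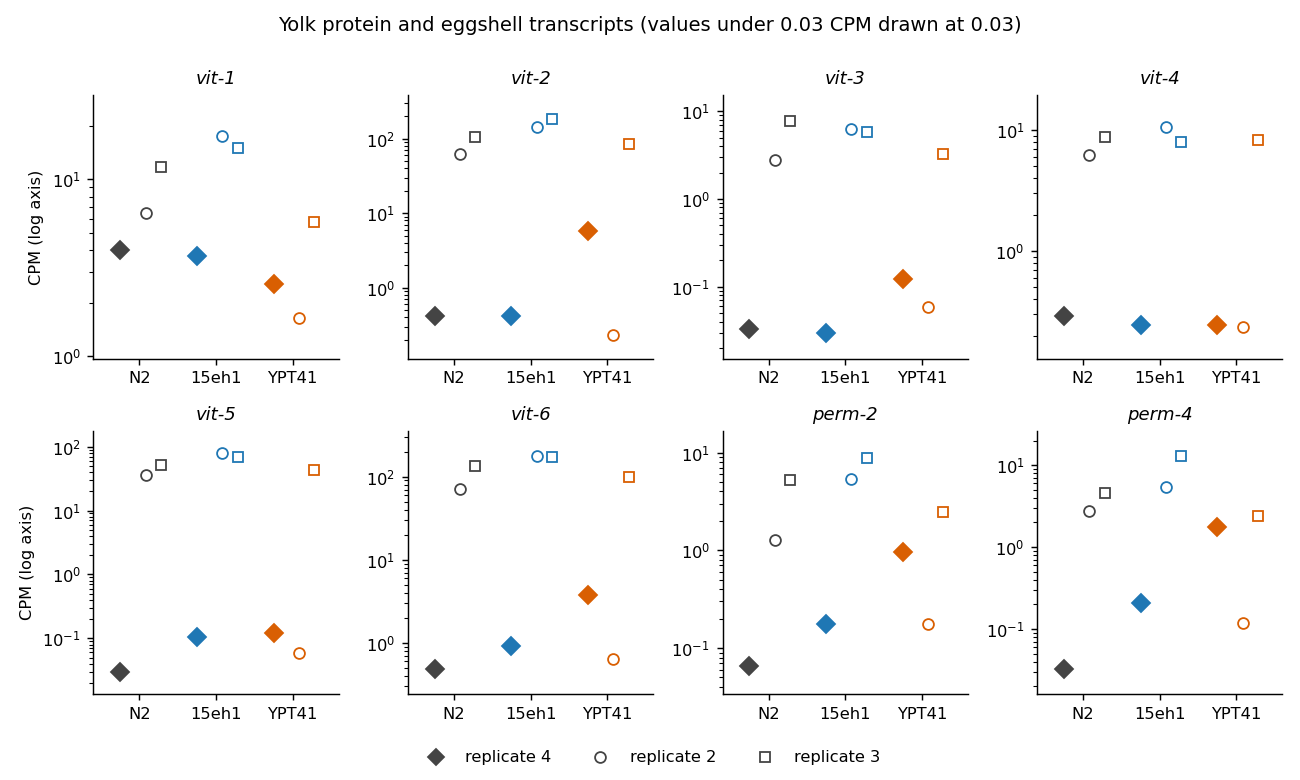
CPM per library on log axes for the 6 vitellogenin genes and for perm-2 and perm-4, with replicate 4 as filled diamonds and replicates 2 and 3 as open circles and squares (values under 0.03 are drawn at 0.03). In N2 and 15eh1 the filled symbols lie below the open ones in every panel, and in YPT41 the open square of replicate 3 lies highest.

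Genes that follow feeding lay on both sides of 0. Of 15 fasting response genes tested, out of 16, 8 lay above 0 and the median was 0.08. DESeq2 called 2 higher (13.3%, against 3.26% of all genes) and 2 lower (13.3%, against 2.08%). On the lower side was acs-2, an acyl-CoA synthetase that starved worms raise, at 80.2 (N2), 206 (15eh1) and 509 CPM (YPT41) in replicate 4, against 223 and 616 (N2), 224 and 522 (15eh1) and 1254 and 703 CPM (YPT41) in replicates 2 and 3. Replicate 4 was lowest in each strain, yet YPT41 replicate 4 lay within the range of the other 6 (−1.33 ± 0.45; adjusted p = 0.177; DESeq2 0.0196). The glyoxylate cycle gene icl-1 had 2494 (N2), 4424 (15eh1) and 7721 CPM (YPT41) in replicate 4, against 4488 and 6568 (N2), 4633 and 7780.1 (15eh1) and 12996 and 12776 CPM (YPT41) in replicates 2 and 3, again lowest in replicate 4 of each strain (−0.78 ± 0.23; DESeq2 adjusted p = 0.0162). On the higher side the lysosomal lipase gene lipl-5 had 276 (N2), 213 (15eh1) and 296 CPM (YPT41) in replicate 4, against 128 and 209 (N2), 149.7 and 84.1 (15eh1) and 133 and 122 CPM (YPT41) in replicates 2 and 3. Its groups did not overlap (0.93 ± 0.22; DESeq2 adjusted p = 0.00603). The fourth call was hacd-1, a hydroxyacyl-CoA dehydrogenase gene, at 1.203 ± 0.35. The gluconeogenesis gene pck-1 had 0.26 ± 0.34.

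Genes of propionate breakdown and of vitamin B12-dependent metabolism had a median of 0.01 over 12 genes, with −0.51 in N2, −0.09 in 15eh1 and 0.44 in YPT41. DESeq2 called 4 lower (33.3%) and 1 higher (8.33%). Of the lower ones, 3 belong to the shunt that worms use when vitamin B12 is scarce. Its first enzyme gene, acdh-1, was at 229 (N2), 329 (15eh1) and 385 CPM (YPT41) in replicate 4, against 734 and 1053 (N2), 414 and 501 (15eh1) and 854 and 752 CPM (YPT41) in replicates 2 and 3. All 3 libraries of replicate 4 were below the other 6 (−1.12 ± 0.27; DESeq2 adjusted p = 0.00177). The nuclear receptor genes nhr-10 and nhr-68, which activate the shunt, were lower too. For nhr-10 the values were 12.95 (N2), 20.3 (15eh1) and 12.9 CPM (YPT41) in replicate 4, against 27.3 and 32.9 (N2), 34.2 and 33.5 (15eh1) and 37.4 and 28.9 CPM (YPT41) in replicates 2 and 3, without overlap (−1.096 ± 0.18; adjusted p = 0.0879; DESeq2 1.83e-05). For nhr-68 they were 5.11 to 46.2 CPM in replicate 4 and 23.5 to 69.7 CPM in replicates 2 and 3 (−1.28 ± 0.46), with the lowest level in YPT41 replicate 4. The methionine synthase gene metr-1 had −0.66 ± 0.18, and the acyl-CoA dehydrogenase gene acdh-3 was called higher (0.62 ± 0.16, DESeq2 adjusted p = 0.0175). In the whole list 6 genes lay above 0 and 6 below. DESeq2 called neither of the 2 most abundant members, alh-8 (−0.09 ± 0.21) and pccb-1 (0.32 ± 0.20). Within strains alh-8 had −0.58 in N2, −0.28 in 15eh1 and 0.52 in YPT41.

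**Figure D4:**
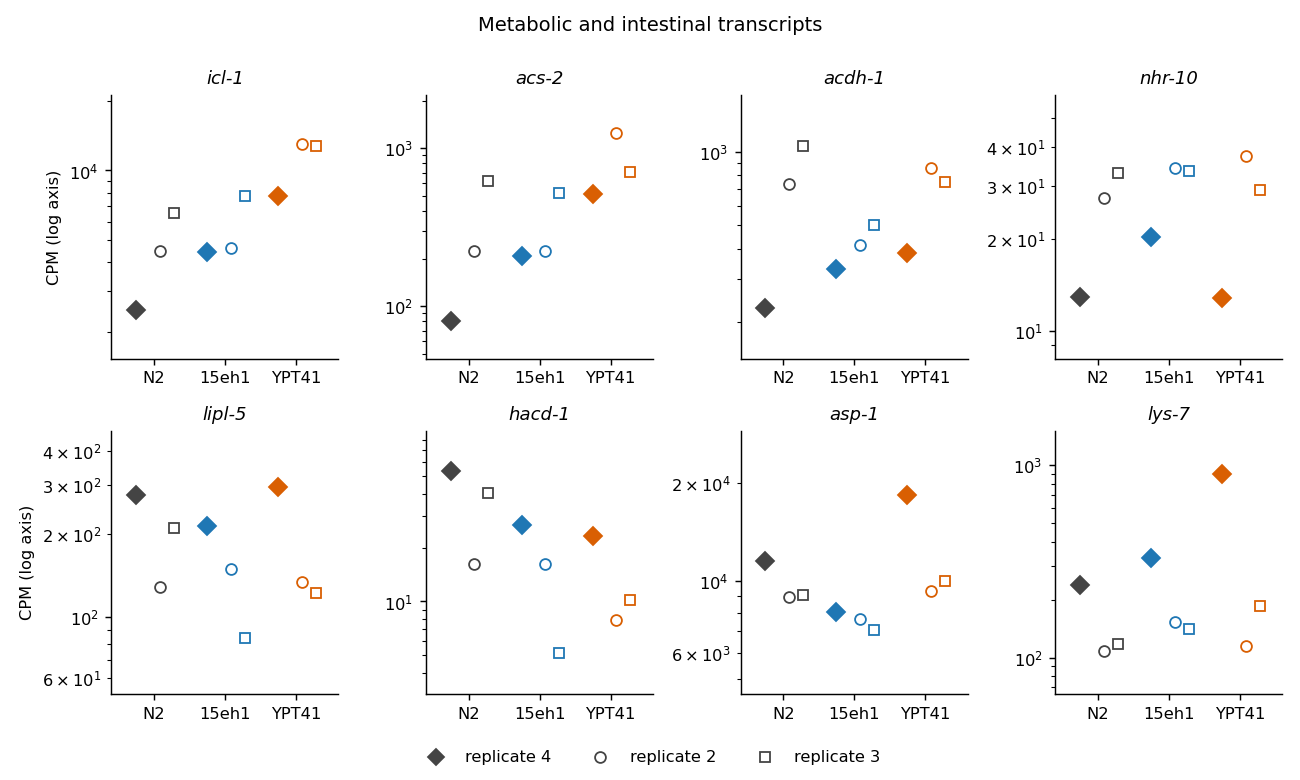
CPM per library on log axes for 8 metabolic and intestinal transcripts, with replicate 4 as filled diamonds and replicates 2 and 3 as open circles and squares. In acdh-1 and nhr-10 the filled symbols lie below all open ones and in lipl-5 and lys-7 above them, and in icl-1 and acs-2 replicate 4 is lowest within each strain.

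Fatty acid synthesis genes had a median of −0.02 over 14 genes, with 1 DESeq2 call (7.14%) each way. The desaturase gene fat-3 had −0.69 ± 0.18, with 98.1 to 143 CPM in replicate 4 and 161 to 219 CPM in replicates 2 and 3 and no overlap, and the elongase gene elo-6 had 0.71 ± 0.19. Intestinal digestive enzymes leaned upward, with 16 of 22 above 0, a median of 0.37 and 3 called higher by DESeq2 (13.6%). The 2 most abundant are aspartic protease genes. For asp-1 the level was 11539 (N2), 8009 (15eh1) and 18324 CPM (YPT41) in replicate 4, against 8900.3 and 9022 (N2), 7636 and 7090.4 (15eh1) and 9328 and 9967 CPM (YPT41) in replicates 2 and 3, highest in replicate 4 of each strain (0.48 ± 0.18; adjusted p = 0.201), and for asp-6 the difference was 0.55 ± 0.20. DESeq2 did not call either (adjusted p = 0.0854 and 0.0933). Intestine markers outside digestion (9 genes) had a median of 0.10 and no call.

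Ribosomal protein genes were above 0 in 76 of 79, with a median of 0.25, but −0.26 in 15eh1 against 0.33 in N2 and 0.60 in YPT41. In no member did replicate 4 lie above both other replicates in each strain, or below both, and rpl-4 had 0.28 in N2, −0.13 in 15eh1 and 0.55 in YPT41 and rpl-18 0.34 in N2, −0.11 in 15eh1 and 0.95 in YPT41. Their share of counts was 14.3% (N2), 13.99% (15eh1) and 16.1% (YPT41) in replicate 4, and 11.8% to 16.1% in replicates 2 and 3. Insulin-like peptide genes (20 tested) had a median of 0.23, with −0.21 in N2, 0.22 in 15eh1 and 0.80 in YPT41. DESeq2 called 2 of them higher (10%) and 1 lower (5%), ins-33 among the higher (1.31 ± 0.30). Of 18 genes of the insulin pathway and its targets (median −0.12), 6 lay above 0 and 12 below. DESeq2 called 2 higher (11.1%) and 2 lower (11.1%). On the higher side sod-3, a superoxide dismutase gene that the factor DAF-16 activates, was at 22.9 (N2), 22.9 (15eh1) and 42.2 CPM (YPT41) in replicate 4, against 2.04 and 16.6 (N2), 12.1 and 3.86 (15eh1) and 3.23 and 2.48 CPM (YPT41) in replicates 2 and 3. All 3 libraries of replicate 4 were above the other 6, and DESeq2 did not call it (2.28 ± 0.65; adjusted p = 0.0622).

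Secreted defence genes were higher in part. Of 10 lysozyme genes tested, out of 16, 6 lay above 0 and 4 were called higher by DESeq2 (40.0%), with 0 lower. For lys-7 the level was 239 (N2), 327 (15eh1) and 904 CPM (YPT41) in replicate 4, against 107.9 and 118 (N2), 153 and 141 (15eh1) and 114.7 and 186 CPM (YPT41) in replicates 2 and 3. The groups did not overlap (1.66 ± 0.28; adjusted p = 0.0879; DESeq2 1.24e-05), and in YPT41 the gap was widest. The differences of lys-1 and lys-8 were 0.88 ± 0.18 and 0.91 ± 0.19, also with no overlap. C-type lectin genes, 99 tested of 254, had a median of 0.34 and 18 called higher (18.2%) against 1 lower. The most abundant, clec-63, had 3804 (N2), 3289 (15eh1) and 7196 CPM (YPT41) in replicate 4, against 2029 and 2159 (N2), 2233 and 2275 (15eh1) and 2568 and 2753 CPM (YPT41) in replicates 2 and 3, with replicate 4 above the other 6 (0.96 ± 0.18). Those of clec-50, clec-150, clec-67 and clec-265 were 0.96 ± 0.20, 1.08 ± 0.16, 1.17 ± 0.21 and 1.14 ± 0.20.

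Glutathione S-transferase genes (37 tested) had a median of 0.38, with 5 called higher (13.5%) and 1 lower (2.7%) by DESeq2. The 3 of lowest p were gst-13 (0.86 ± 0.16), gst-42 (0.96 ± 0.19) and gst-10 (1.08 ± 0.23). UDP-glucuronosyltransferase genes, which conjugate small molecules, were on the other side, with 44 of 60 below 0, a median of −0.43 and 6 called lower (10.0%) against 0 higher. That list was near 0 in 15eh1 (−0.03), against −0.32 in N2 and −0.86 in YPT41. Caenacin and related peptide genes had 4 called higher among 18 (22.2%), with 1.32 in YPT41 but 0.12 in N2 and −0.10 in 15eh1. Intracellular pathogen response genes had 2 called higher among 21 (9.52%). The level of pals-14 was 5.86 (N2), 6.05 (15eh1) and 10.7 CPM (YPT41) in replicate 4, against 1.81 and 3.61 (N2), 1.37 and 1.42 (15eh1) and 2.64 and 2.71 CPM (YPT41) in replicates 2 and 3 (1.75 ± 0.28).

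At an adjusted p below 0.10, a threshold added after the values were seen, edgeR named 274 genes, 202 higher (1.52%) and 72 lower (0.541%). Higher differences without overlap were ranked among genes with at least 5 CPM in the higher group and a name other than a sequence name. The largest were those of abu-1, idpc-4 and srg-31, a chemoreceptor family gene. The level of srg-31 was 24.6 (N2), 22.6 (15eh1) and 99.4 CPM (YPT41) in replicate 4, against 6.12 and 11.1 (N2), 7.54 and 4.04 (15eh1) and 5.87 and 9.94 CPM (YPT41) in replicates 2 and 3 (2.46 ± 0.40, edgeR adjusted p = 0.0879, DESeq2 8.39e-07). Also higher were mbug-1 and dct-5, at 2.01 ± 0.39 and 1.91 ± 0.40. On the lower side, under the same conditions and among genes with a name other than a sequence name, ugt-9 had the largest difference, at 3.09 (N2), 3.99 (15eh1) and 2.13 CPM (YPT41) in replicate 4, against 8.38 and 8.66 (N2), 7.997 and 22.1 (15eh1) and 8.74 and 5.98 CPM (YPT41) in replicates 2 and 3 (−1.72 ± 0.33). Of the sequence-named genes M163.1, picked after its values were seen, had 33.8 (N2), 54.9 (15eh1) and 69.2 CPM (YPT41) in replicate 4, against 85.3 and 81.8 (N2), 122 and 124 (15eh1) and 145 and 241 CPM (YPT41) in replicates 2 and 3, with all of replicate 4 below the other 6 libraries (−1.31 ± 0.19; DESeq2 adjusted p = 1.23e-07). Others on the lower side were gbh-2, a carnitine synthesis enzyme gene (−1.22 ± 0.26), the choline kinase gene cka-1 (−1.08 ± 0.22), the neprilysin-type peptidase gene nep-26 (−1.07 ± 0.25), the G protein alpha subunit gene gpa-12 (−1.07 ± 0.22), the glutaminase gene glna-2 (−1.06 ± 0.23) and suco-1 (−1.01 ± 0.20). The nuclear export receptor gene xpo-1 had 245 (N2), 261 (15eh1) and 203 CPM (YPT41) in replicate 4, against 407 and 432 (N2), 423 and 526 (15eh1) and 496 and 510.0 CPM (YPT41) in replicates 2 and 3. Its levels were below the other 6 libraries in all of replicate 4 (−0.97 ± 0.16; DESeq2 adjusted p = 1.71e-06). For nhl-2, a cofactor of microRNA silencing, and vwa-8 the differences were −0.97 ± 0.18 and −0.87 ± 0.20.

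In edgeR's test of the strain by replicate terms 1 gene passed (0.00752% of 13299), and 1858 genes had an unadjusted p below 0.05. Each strain has 1 library of replicate 4, which is assumed to vary like replicates 2 and 3, the source of the 3 residual degrees of freedom. A difference between strains and the deviation of a single library, such as YPT41 replicate 4, cannot be told apart there. The gene that passed was hsp-70, an inducible chaperone gene, with 49.9 (N2), 16.1 (15eh1) and 332 CPM (YPT41) in replicate 4, against 145 and 94.7 (N2), 147 and 213 (15eh1) and 26.99 and 21.002 CPM (YPT41) in replicates 2 and 3. It was lowest in replicate 4 of N2 and 15eh1 and highest in that of YPT41, by −1.23 in N2, −3.45 in 15eh1 and 3.79 in YPT41 (adjusted p = 0.0414). Without N2 replicate 2, 15eh1 replicate 2 or 15eh1 replicate 3 no gene passed, and without YPT41 replicate 3 there were 145. Next by p were the sequence-named genes R08E3.2 (adjusted p = 0.0514; differences of 0.51 in N2, 0.16 in 15eh1 and −3.20 in YPT41) and ZK1025.3 (0.0537; differences of 0.23 in N2, 0.42 in 15eh1 and −5.90 in YPT41), both lowest in YPT41 replicate 4. Of genes with a name other than a sequence name, those of lowest p after hsp-70 were col-108 (adjusted p = 0.0537), aip-1, an arsenite-inducible gene (0.0645), the small heat shock gene hsp-43 (0.130), mua-3, whose product links muscle to cuticle (0.130), and the calponin-like gene cnp-3 (0.130). In YPT41 the differences of these 5 were 5.98, 2.25, 1.404, −2.01 and 2.20.

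Heat shock proteins as a list had medians of −0.47 in N2, −0.79 in 15eh1 and 1.12 in YPT41, over 21 genes, and DESeq2 called none in the comparison over all strains. In edgeR 1 was higher (4.76%, against 10.3% of all genes) and 3 lower (14.3%, against 8.17%) at an unadjusted p below 0.05. The constitutive chaperone gene hsp-1 had 4018 (N2), 3169 (15eh1) and 7083 CPM (YPT41) in replicate 4, against 4751 and 3871 (N2), 4745 and 5504 (15eh1) and 3414 and 2184 CPM (YPT41) in replicates 2 and 3, highest in YPT41 replicate 4 and lowest in YPT41 replicate 3. The small chaperone gene hsp-16.2 did not follow hsp-70 in YPT41: its level was 48.2 (N2), 18.8 (15eh1) and 10.3 CPM (YPT41) in replicate 4, against 260.5 and 132 (N2), 141 and 294 (15eh1) and 47.9 and 0.677 CPM (YPT41) in replicates 2 and 3. Replicates 2 and 3 of YPT41 lay far apart there, with replicate 4 between them. It has a near copy in the genome, and reads without a unique position were tallied apart, so its counts may miss some of its reads.

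**Figure D5:**
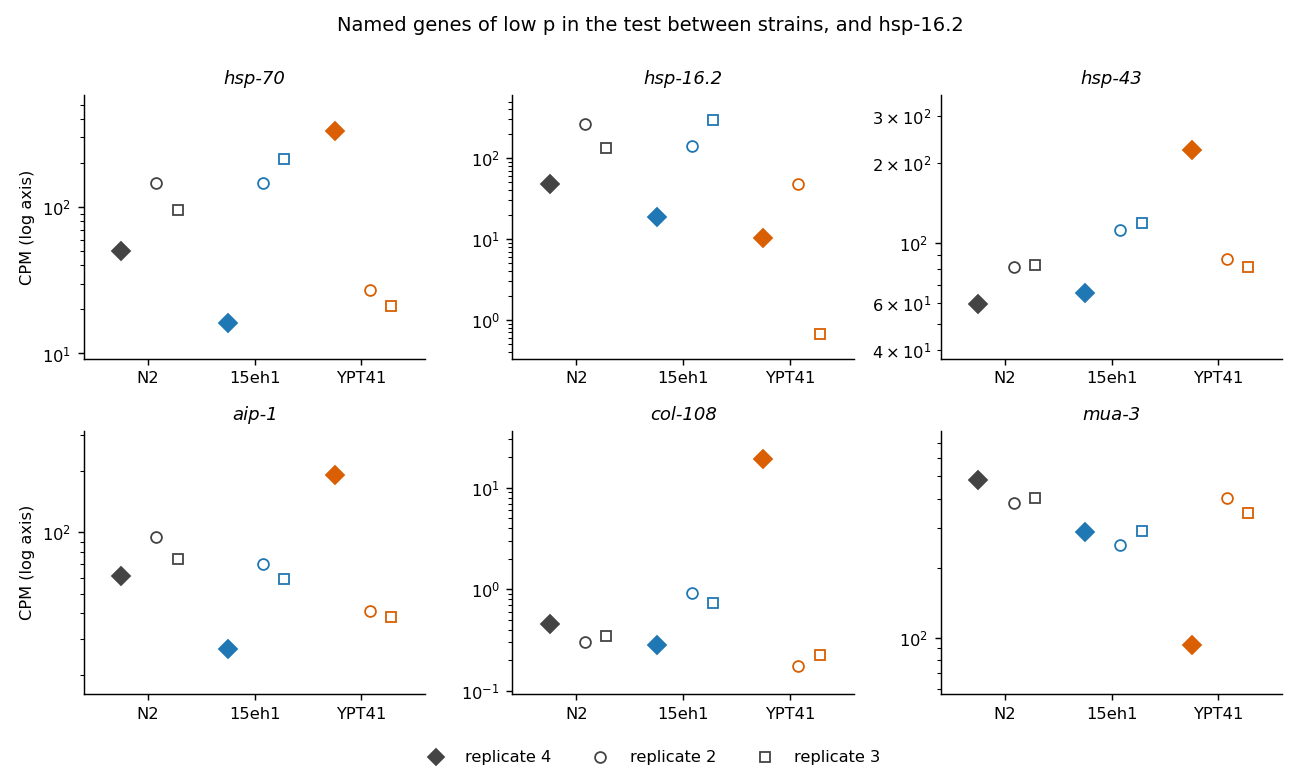
CPM per library on log axes for 5 of the 6 genes of lowest p between strains among those with a name other than a sequence name, and for hsp-16.2, with replicate 4 as filled diamonds and replicates 2 and 3 as open circles and squares. For hsp-70, hsp-43 and aip-1 the filled symbol is lowest in N2 and 15eh1 and highest in YPT41, and for mua-3 it is highest in N2 and lowest in YPT41.

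Among lists of tissues and complexes, the dosage compensation complex, which lowers transcription from both X chromosomes of hermaphrodites, had 9 of 10 members below 0 (median −0.28, with −0.15 in N2, −0.23 in 15eh1 and −0.63 in YPT41). DESeq2 called 2 lower (20%), among them the condensin subunit gene dpy-28. It was at 44.9 (N2), 63.2 (15eh1) and 36.5 CPM (YPT41) in replicate 4, against 67.4 and 73.6 (N2), 82.5 and 86.5 (15eh1) and 86.9 and 113.6 CPM (YPT41) in replicates 2 and 3, without overlap (−0.82 ± 0.21; adjusted p = 0.112; DESeq2 0.00708). For dpy-27 and dpy-21 the differences were −0.44 ± 0.15 and −0.26 ± 0.16, and sdc-2 had −0.16 in N2, 0.04 in 15eh1 and −2.06 in YPT41. Several tissue lists differed in sign between strains. FLP neuropeptide genes had a median of 0.10 over 30 genes, with −0.47 in N2, 0.08 in 15eh1 and 0.69 in YPT41, and 3 of them lay above 0 in N2 but 30 in YPT41. Body wall muscle genes had 0.14 over 14 genes, with 0.23 in N2, −0.17 in 15eh1 and 0.41 in YPT41. Pharyngeal muscle and gland genes had 0.32 over 12 genes, with −0.01 in N2, 0.05 in 15eh1 and 0.87 in YPT41. Epidermis and seam genes (13, median −0.30) and synaptic genes (18, median −0.25) had medians below 0 in each strain. DESeq2 called 1 FLP gene (3.33%) and 2 pharyngeal genes (16.7%) higher, against 3.26% of all genes. It called 1 epidermal gene (7.69%) and 1 synaptic gene (5.56%) lower, against 2.08%, and no body wall muscle gene. Cytochrome P450 genes had a median of −0.11 over 36 genes, with a value near 0 in N2, 0.18 in 15eh1 and −0.53 in YPT41, and no call. Of 7 hypoxia genes, with a median of −0.05 in N2, −0.14 in 15eh1 and 1.202 in YPT41, hif-1 was called lower (14.3% of the list, −0.44 ± 0.14). Of 5 osmotic response genes hmit-1.1, a myo-inositol transporter gene, was called higher (20% of the list, 0.95 ± 0.20).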

How the data were processed

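The authors deposited whole-number read counts per gene, 1 table per library. Tools listed in the submitters' processing notes, without roles, include TopHat2 2.1.1, HTSeq, SAMtools 1.6 and Bowtie 1.2.0. Genome build, annotation and strandedness were not given in the sources used, so reads of antisense or overlapping genes cannot be told apart. Reads without a unique position, as similar genes can give, were tallied apart from the genes. Summary lines were left out of library sizes (no feature 2.56% to 4.25%, ambiguous 0.713% to 0.893%, not unique 13.2% to 22.7%). Of 20389 identifiers, 19879 matched the RefSeq table of WBcel235, used for symbols only. No library repeated another of its strain, since the chi-square per gene was at least 22.3.

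The test was edgeR's (4.0.16, R 4.3.3; TMM, filterByExpr for a group of 3, quasi-likelihood tests, strain as a block, two-sided, Benjamini-Hochberg adjustment, threshold 0.05; 13299 genes, 5 residual degrees of freedom). Strain by replicate terms were tested jointly (3 residual degrees of freedom). Scripts were tested on simulated data, with 100 genes set to change 2-fold and 100 set to change 4-fold, drawn from genes above a count limit. The main test called 58 and 100 of them, with 10 false calls. In the simulation genes of like level shared the same spread, and no library stood apart as YPT41 replicate 4 does. These calls therefore do not show what the main test would miss in the real libraries. With the change placed in YPT41 replicate 4 alone, the test between strains called 0 and 21, with 0 false calls. A low count of genes between strains therefore says little about how alike the strains are. Within-strain differences use log2 CPM with a prior count of 2. DESeq2 1.42.0 and limma 3.58.1 were alternatives. A p that DESeq2 did not give was left out of its calls.

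The comparison, its 47 gene lists and their members were chosen with earlier results of these data known. Genes named were first those of the largest differences at the threshold with no overlap between the groups (12 each way, at most 3 per class). They had at least 5 CPM in the higher group and a name other than a sequence name. For these genes the lack of overlap follows from the choice. The higher ones were abu-1, abu-10, idpc-3, idpc-4, idpc-6, srg-31, mbug-1, grd-6, dct-5, col-12, pals-14 and pqn-63. The lower ones were ugt-9, gbh-2, nhr-10, cka-1, nep-26, gpa-12, glna-2, suco-1, xpo-1, nhl-2, vwa-8 and daf-5. Second were the 3 of lowest p in lists with 3 or more past the threshold. Also named were all members of 4 lists (vitellogenins, heterochronic genes, molting regulators, furrow collagens). The 6 genes of lowest p between strains, with a name other than a sequence name, were added. Of the 2 most abundant members of a described list, 1 or both were named in only part of the lists. For fatty acid synthesis the genes named were those DESeq2 called. As no gene passed 0.05, the first pair of rules was applied at 0.10, a step added after the data were seen. Other named genes were chosen after their values were seen. No table of promoter or protein sequences was used here, and none is printed.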

Additional observations from a re-analysis of the deposited data

Results flagged for a closer look

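For each named gene except alh-8 and pccb-1, the 6 libraries of replicates 2 and 3 were searched for one far from the rest. The search used the log2 CPM scale and Dixon's criterion for 6 values at the 95% level. Chance flags about 1 in 20 such groups. YPT41 replicate 2 stood low in vit-2 (−1.55, the others 5.96 to 7.51), vit-3 (−2.59, the others 1.54 to 2.96), vit-4 (−1.55, the others 2.67 to 3.43), vit-5 (−2.59, the others 5.19 to 6.32) and vit-6 (−0.41, the others 6.17 to 7.47). It also stood low in asp-6 (10.84, the others 11.26 to 11.36) and high in dpy-17 (5.54, the others 3.79 to 4.38).

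YPT41 replicate 3 stood low in hsp-16.2 (−0.35, the others 5.59 to 8.20), lys-1 (7.68, the others 8.32 to 8.61), nhr-68 (4.56, the others 5.78 to 6.12), puf-9 (6.00, the others 6.68 to 6.92) and sea-2 (7.67, the others 8.07 to 8.22). Of the remaining libraries, 15eh1 replicate 2 stood low in dpy-21 (6.77, the others 7.28 to 7.53) and high in F57F4.2 (3.69, the others −3.22 to −1.58). N2 replicate 3 stood high in col-102 (2.56, the others −3.22 to −2.70), and 15eh1 replicate 3 in ugt-9 (4.47, the others 2.61 to 3.15).

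For hsp-70 the strain by replicate terms passed edgeR's test (adjusted p = 0.0414), with differences of −1.23 in N2, −3.45 in 15eh1 and 3.79 in YPT41. With 1 library of replicate 4 per strain, assumed to vary like replicates 2 and 3, a difference between strains and the deviation of 1 library cannot be told apart.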

How the results depend on the processing

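EdgeR's count of 0 genes stayed at 0 with RLE scaling, a stricter filter, thinned libraries, no strain block, a robust prior spread, limma voom, replicate 2 alone as comparison, all 12 libraries, and without the strain N2 or 15eh1. It was 711 with DESeq2, 217 with no filter on low counts, 274 at a threshold of 0.10 (added after seeing the data), 2 against replicate 3 alone (vit-4 and vit-5) and 11 without the strain YPT41. Leaving out 1 library gave 0 to 5 genes: 5 without YPT41 replicate 2, 1 without N2 replicate 3 (col-102) and 1 without 15eh1 replicate 2 (F57F4.2). The count of 1 gene between strains (hsp-70) was 589 with DESeq2, 578 with no filter, 3 with thinned libraries (with R08E3.2 and ZK1025.3), 5 with a robust prior spread (with col-108 and aip-1 too) and 5 at a threshold of 0.10. It ranged from 0 to 145 when 1 library of replicates 2 and 3 was left out, with 145 without YPT41 replicate 3. Robust, voom and these last fits were added after seeing the data. No paired analysis was possible because the replicate number is the factor compared, and the strain serves as the block.

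Among 133 named genes, all but alh-8 and pccb-1, 25 turned the sign of their log2 difference under at least 1 alternative run. In each of the 25 the differences within the 3 strains did not share a sign. The sign turned without the strain YPT41 for R08E3.2 0.33, ZK1025.3 0.31, aip-1 −0.86, bed-3 0.25, blmp-1 0.054, cnp-3 −0.027, col-108 −0.53, daf-12 0.078, dre-1 0.22, hsp-1 −0.40, hsp-43 −0.66, hsp-70 −2.23, lin-41 0.052, mlt-11 0.28, mua-3 0.19, myrf-1 0.27, noah-1 0.19, pck-1 −0.24, ptc-3 0.12, Molting regulators (list median) 0.25 and Intestine markers (list median) −0.11. The sign turned with no strain block for ZK1025.3 0.077 and myrf-1 0.041. The sign turned against replicate 2 alone for aip-1 −0.029, cpg-1 0.16, hsp-70 −0.83, nhr-23 −0.15 and Sperm genes (list median) 0.042. The sign turned without the strain N2 for col-19 0.31, mab-10 −0.35, nhr-23 −0.051 and Adult cuticle collagens (list median) 0.17. The sign turned without the strain 15eh1 for col-19 0.46, cpg-1 0.12, dpy-10 −0.025, dpy-2 −0.12, nhr-23 −0.22 and Adult cuticle collagens (list median) 0.46. The sign turned against replicate 3 alone for hsp-70 −0.57 and myrf-1 0.013. The sign turned with limma voom for hsp-70 −0.30. The sign turned with thinned libraries for Embryonic regulators (list median) 0.032. Leaving out 1 library, signs turned with these ranges: R08E3.2 −1.13 to 0.33, ZK1025.3 −1.44 to 0.32, aip-1 −0.86 to 1.13, bed-3 −0.93 to 0.26, blmp-1 −0.64 to 0.058, cnp-3 −0.023 to 1.44, col-108 −0.51 to 4.16, col-19 −4.38 to 0.42, cpg-1 −0.87 to 0.15, daf-12 −0.60 to 0.083, dpy-2 −0.10 to 0.18, dre-1 −0.30 to 0.22, hsp-1 −0.39 to 0.71, hsp-43 −0.65 to 0.60, hsp-70 −2.23 to 2.08, lin-41 −0.53 to 0.056, mab-10 −0.35 to 0.52, mlt-11 −0.33 to 0.29, mua-3 −0.83 to 0.19, myrf-1 −0.21 to 0.27, nhr-23 −0.19 to 0.39, noah-1 −0.47 to 0.20, pck-1 −0.23 to 0.55, ptc-3 −0.27 to 0.13, Molting regulators (list median) −0.48 to 0.26, Adult cuticle collagens (list median) −0.77 to 0.42 and Intestine markers (list median) −0.11 to 0.25. The cause was not tested.

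Depth limits the low genes: 3 counts equal 0.0960 to 0.364 CPM before TMM scaling. The fitted differences of vitellogenins, cut-1, grl-17, perm-2, perm-4 and col-19 rest on few counts in some libraries. The comparison has 3 libraries against 6, with YPT41 replicates 3 and 4 apart from the rest. Some lists differ in sign in YPT41 (molting regulators, heat shock proteins). There a strain difference and the deviation of YPT41 replicate 4 cannot be told apart. The mean log2 CPM of molting regulators in YPT41 was 5.39 in replicate 4, against 6.06 and 6.35 in replicates 2 and 3. For heat shock proteins it was 6.54, against 5.90 and 4.62.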

Other observations

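The library of 15eh1 replicate 4 held 18132 genes with a count, more than the 15296 to 16863 of the other 8 libraries. Of these, 565 had no count in any other library, and 468 of the 565 had 1 or 2 counts. In the other libraries 24 to 91 genes were counted in that library alone. After thinning every library to about the smallest total, 8237095 counts, 15eh1 replicate 4 still had 16358 genes with a count, against 15004 to 15704 in the others.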
